A study of Homo sapiens with 36 samples.

Results

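The genes described here are 35 members of the cell cycle and DNA replication machinery, measured in THP-1, a human monocytic leukaemia cell line that divides continuously in culture. They were set by a list of symbols, chosen with earlier results of these data known. The rule itself uses no measured difference between groups. Probes annotated to these symbols were kept where they were detected on at least 3 arrays, and the brightest probe on average stood for its gene. All 35 were detected, of 13582 genes tested in the whole series. They comprise 13 replication genes, 13 mitotic genes and 9 regulators of the passage from G1 into S phase.

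Cells received gp120 of HIV strain SF162 (1 nM), the viral envelope protein that binds CD4, or lipopolysaccharide (LPS, 1 µg/ml), a bacterial cell wall component, or neither. Each was given with or without SB203580 (SB, 10 µM), an inhibitor of the stress kinase p38 MAPK, added 15 min beforehand. RNA was taken after 4 h and 24 h, so that 6 treatments at each time made 12 groups: vehicle control, gp120 alone, LPS alone, SB alone, SB before gp120 (SB+gp120) and SB before LPS (SB+LPS). Every group held 3 biological replicates, and the series 36 arrays. DMSO (0.1%) and BSA (0.001%) served as vehicles. THP-1 is 1 transformed line, and the labels name no sorting or synchronisation of its cells. Of 10 monocyte and THP-1 lineage markers 9 were detected, among them CD68 (log2 13.84 to 14.34) and ELANE (13.91 to 15.43), while CD33 was not analysed here. Among 12 markers of other cell types 6 were detected, of which NKG7 (7.67 to 9.87) was well above background and CD3D, MS4A1, CD79A, COL1A2 and HBB were near it, at 6.20 or less; CD3E, KLRD1, KRT19 and COL1A1 were detected on no array.

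In a dividing cell, the retinoblastoma protein holds E2F transcription factors in check until cyclin D and cyclin E kinases phosphorylate it. E2F1 and its relatives then switch on the genes for DNA replication, and CDKN1A and CDKN1B, inhibitors of the cyclin-dependent kinases, oppose that step. Replication genes peak around S phase, and mitotic genes later, in G2 and M, where a CHR element together with CCAAT boxes is a known promoter feature. THP-1 cells slow their division when they differentiate towards macrophages.

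The start-site sequences show this division of the members, because the E2F letters sit mainly in replication promoters and the CHR letters mainly in mitotic ones. Windows of 300 bases (250 before and 50 after the start, RefSeq, GRCh38.p14) were read for 28 of the 35 members, all but CCNE2, CCND2, CDK2, MCM4, MCM5, AURKA and BIRC5. The CHR letters were TTTGAA or TTCGAA, the E2F letters TTTCCCGC, TTTGGCGC, TTTCGCGC or TTTGCCGC, and the CCAAT box CCAAT, each on both strands. CHR letters were present in 8 of 11 mitotic windows (72.7%), in 2 of 11 replication windows (18.2%) and in 16.6% of all 27305 promoters. E2F letters were present in 8 of 11 replication windows (72.7%), in 1 of 11 mitotic windows (9.09%) and in 3.33% of all promoters. CCAAT boxes were present in 10 of the mitotic and 8 of the replication windows, against 35.7% of all promoters. Of 6 windows of G1/S regulators, 0 held CHR letters, 2 E2F letters and 3 a CCAAT box. In 43 windows of other mitotic genes the CHR share was 72.1%, and in 43 of other replication genes the E2F share was 32.6%.

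Shown next are the 110 bases just before the start of 6 members on which the results below turn, written 5′ to 3′ on the gene's strand, with every match to these letters in capitals. PLK1, CCNB1 and CDC20 stand for the mitotic members, MCM6 and PCNA for the replication members, and CDKN1A for the inhibitors. PLK1 lies at chr16:23678779-23678888 (plus strand), CCNB1 at chr5:69167040-69167149 (plus strand) and CDC20 at chr1:43358871-43358980 (plus strand). MCM6 lies at chr2:135876444-135876553 (minus strand), PCNA at chr20:5126623-5126732 (minus strand) and CDKN1A at chr6:36678604-36678713 (plus strand).
PLK1: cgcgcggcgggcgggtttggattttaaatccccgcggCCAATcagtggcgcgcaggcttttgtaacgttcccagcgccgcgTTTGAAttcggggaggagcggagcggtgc
CCNB1: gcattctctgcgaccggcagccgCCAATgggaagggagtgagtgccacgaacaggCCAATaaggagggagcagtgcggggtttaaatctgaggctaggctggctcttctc
CDC20: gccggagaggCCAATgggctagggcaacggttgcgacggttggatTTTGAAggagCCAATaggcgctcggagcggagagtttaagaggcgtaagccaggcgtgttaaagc
MCM6: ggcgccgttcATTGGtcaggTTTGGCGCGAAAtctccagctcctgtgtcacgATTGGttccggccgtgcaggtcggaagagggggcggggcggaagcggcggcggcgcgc
PCNA: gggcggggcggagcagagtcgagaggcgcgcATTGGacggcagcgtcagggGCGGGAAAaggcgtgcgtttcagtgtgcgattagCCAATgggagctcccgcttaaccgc
CDKN1A: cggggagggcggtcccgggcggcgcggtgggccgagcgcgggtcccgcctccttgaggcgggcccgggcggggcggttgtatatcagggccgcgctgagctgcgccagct
PLK1 and CDC20 carried CHR letters with a CCAAT box upstream, and CDC20 a further box downstream. CCNB1 carried 2 CCAAT boxes and no CHR letters in this stretch. MCM6 carried overlapping E2F matches between 2 inverted CCAAT boxes, and PCNA 1 inverted E2F match between boxes of both orientations. In CDKN1A none of these letters occurred. A match describes the letters only and was not tested as a binding site.

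Levels are given as background-corrected, quantile-normalised log2 intensities, and differences are on the same scale, so that 1 stands for a 2-fold change. Of the members, 33 were detected on all 36 arrays. CCNE2, a cyclin of the G1/S step, was detected on 15 arrays and CCND2, a D-type cyclin, on 9, and neither was well above background in most groups. The arrays' mean raw signals lay between 403.38 and 1571.8, and between 34.8% and 44.4% of probes were detected on each. Replicates of a group correlated at 0.964 to 0.993 over all genes. Each group lay on 1 of 3 slides: slide 1 held control, gp120, LPS and SB at 24 h, slide 2 control and gp120 at 4 h with SB+gp120 and SB+LPS at 24 h, and slide 3 the other 4 h groups. Of the 15 comparisons between groups, 8 therefore lay within a slide and 7 between slides. A member is said to have risen or fallen only where limma's adjusted p, over all 13582 genes of that comparison, was under 0.05. With 3 arrays a group, the median standard error (SE) of a member's difference was 0.30.

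Before treatment is considered, the mitotic members separated the arrays by replicate number at 4 h. In each of the 6 treatments the array numbered 1 was the lowest of its 3 for all 13 mitotic members, while 9.23% of all genes behaved so. The median gap between number 1 and the mean of numbers 2 and 3 was −1.35 over the mitotic members, against −0.03 over all genes. PLK1, a kinase that drives entry into mitosis, had the widest of these gaps at −2.06. Its level in controls at 4 h was 8.83 in number 1, 10.58 in number 2 and 10.63 in number 3. After LPS it was 7.77, 10.43 and 10.69, and after SB 8.89, 10.61 and 10.68. CCNB1, the cyclin that activates CDK1 for mitosis, gave 10.27, 11.93 and 12.16 in controls at 4 h. MKI67, a marker of proliferating cells, had the narrowest gap (−0.51). Number 1 thus lay low in treated and untreated cells alike.

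In the other classes fewer members showed this order. Of 13 replication members 3 were lowest in number 1 in all 6 treatments: CDC45, the helicase cofactor, with a gap of −0.90, RRM1, a ribonucleotide reductase subunit, and TYMS, thymidylate synthase. The replication median was −0.42. Of 9 G1/S regulators 2 were, CCNE1, a cyclin of the G1/S step, and CDKN1B, and the median gap was −0.01. CDKN1A went the other way, with a gap of 0.33. In the wider lists, 51 of 52 other mitotic genes (98.1%), 21 of 48 other replication genes (43.8%) and 6 of 36 other G1/S regulators (16.7%) were lowest in number 1 throughout. At 24 h 3 of 13 mitotic members were lowest in number 1 in all 6 treatments, beside 1.68% of all genes, with a median gap of −0.42, and no replication member was. Number 1 at 4 h included the dimmest arrays, LPS (mean raw signal 456.7) and SB+LPS (403.38). The control array numbered 1 had a mean raw signal of 1049.6. What set the arrays numbered 1 apart, signal level included, was not tested. In RNA of a whole culture, fewer dividing cells and less of these mRNAs per cell cannot be told apart.

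**Figure D1:**
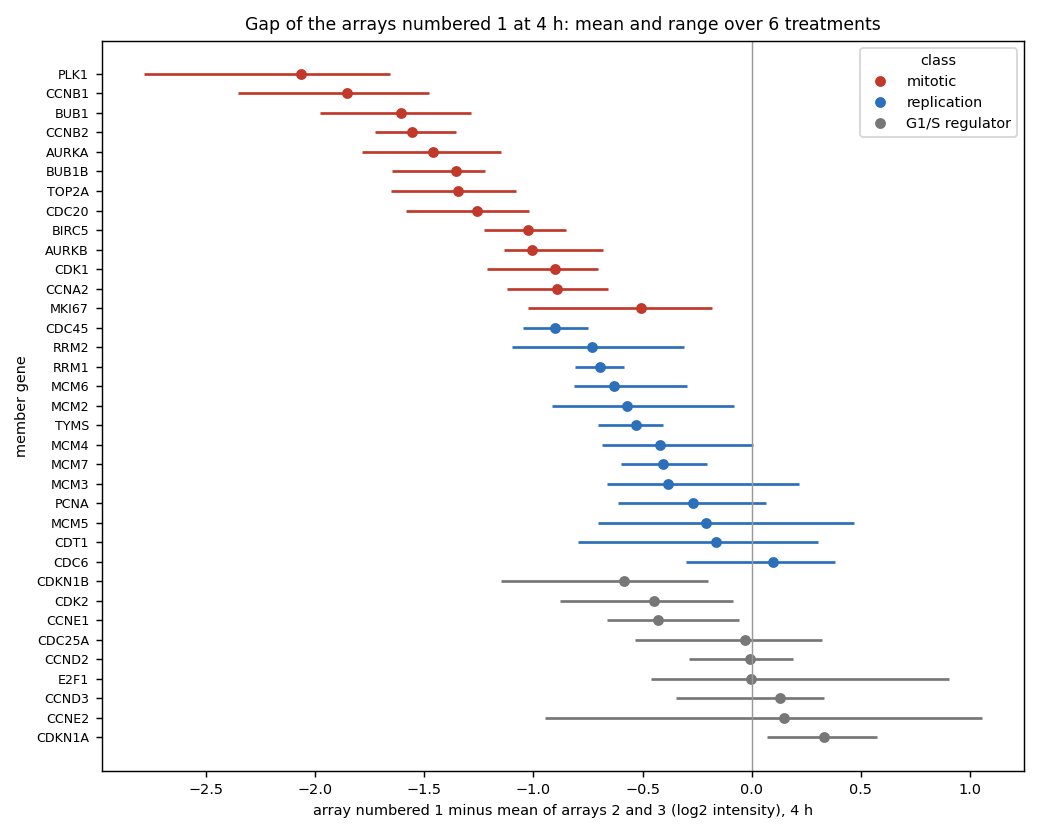
Gap between the array numbered 1 and the mean of the other 2 arrays of its group at 4 h, for each of the 35 members, with the point at the mean over the 6 treatments and the line from the lowest to the highest of them (log2). The mitotic means lie between −2.06 and −0.51, and CDKN1A lies at 0.33.

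Averaged over its 13 members, the mitotic class stood at −0.86 in the control array numbered 1 at 4 h relative to the mean of all 36 arrays, and at −1.26 in the SB+LPS array numbered 1. At 24 h the control arrays stood at 0.29, 0.38 and 0.56, and the LPS arrays at −0.93, −0.16 and 0.21. The first principal component of the 35 members held 58.7% of their variance, against 32.7% for the first component of all genes. Some results are therefore also given without the 6 arrays numbered 1 at 4 h, an alternative chosen after their values were seen. Members named below because an alternative called them, or without a call, were likewise chosen after their values were seen, except MKI67, PCNA, CCNB1, MCM5, CDKN1A and CDKN1B.

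**Figure D2:**
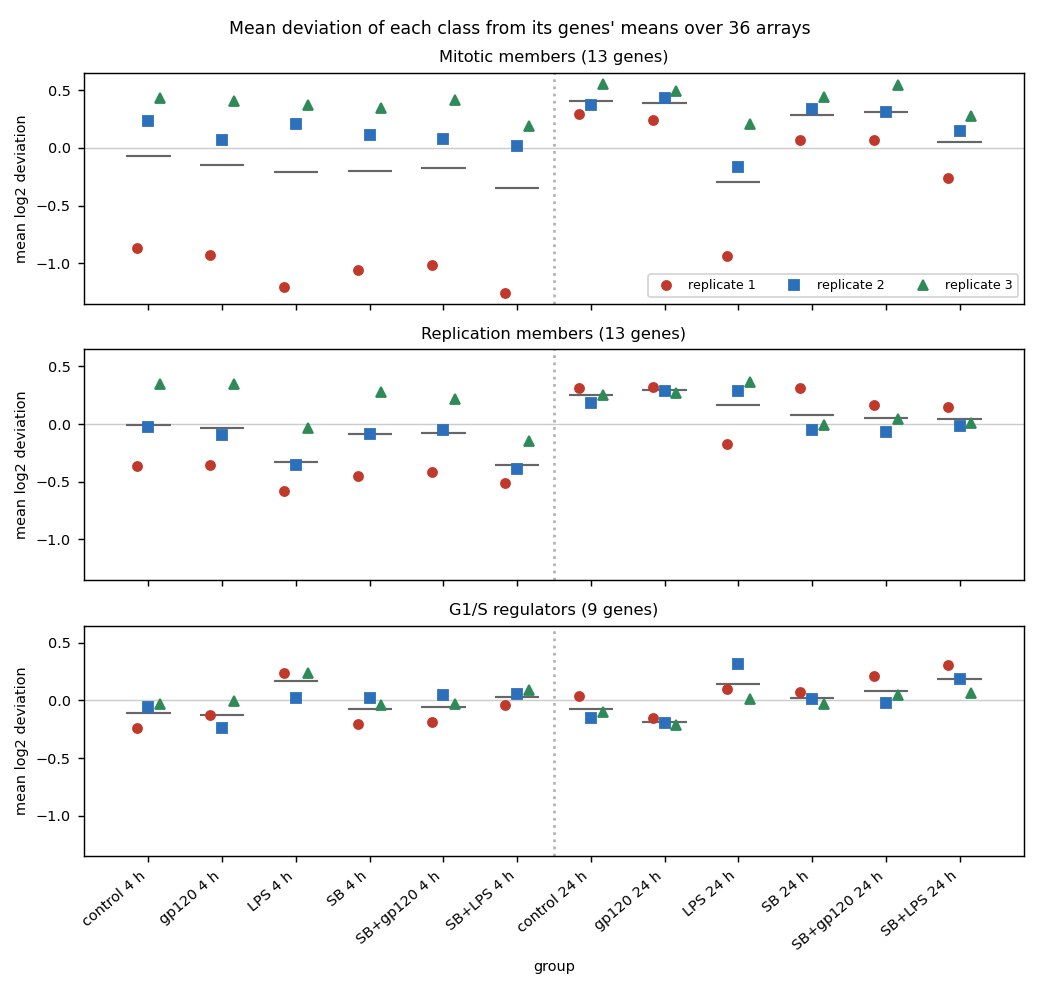
Mean deviation of each class of members from its mean over all 36 arrays (log2), 1 point per array and 3 arrays per group. The mitotic class reaches −1.26 in number 1 of SB+LPS at 4 h and 0.56 in number 3 of control at 24 h.

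At 4 h of LPS 6 of 35 members were called, 2 higher and 4 lower, in a comparison where 26.7% of all genes were called (10.5% higher, 16.2% lower). CDKN1A, the inhibitor induced by p53 and by differentiation signals, was 12.26, 11.83 and 11.59 in controls (mean 11.89 ± 0.33 SD, n = 3) and 13.74, 13.42 and 12.91 after LPS (13.35 ± 0.42). It rose by 1.46 (SE 0.26, adjusted p = 9.45e-05), a 2.75-fold increase, and the groups did not overlap. CCND3, a D-type cyclin that partners CDK4 and CDK6, was 13.98, 13.77 and 13.64 in controls and 12.79, 13.36 and 12.93 after LPS. It fell by 0.77 (SE 0.17, adjusted p = 0.00132), again with every LPS array below every control. E2F1 was 6.47, 7.04 and 6.63 in controls and 8.16, 6.99 and 7.51 after LPS, so number 2 of LPS lay within the control range. Its rise was 0.84 (SE 0.30, adjusted p = 0.039). The inhibitor thus rose together with E2F1, while the cyclin partner fell.

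Among replication members, 12 of 13 had negative differences (median −0.24, all genes −0.09), and 3 fell. PCNA, the sliding clamp of DNA polymerases, was 12.11, 12.26 and 12.71 in controls and 11.19, 11.55 and 12.04 after LPS. It fell by 0.77 (SE 0.22, adjusted p = 0.0111) with no overlap. MCM6, a subunit of the replicative helicase, was 13.06, 13.79 and 13.90 in controls and 12.15, 12.86 and 13.06 after LPS, and fell by 0.89 (SE 0.28, adjusted p = 0.0161). MCM4, another helicase subunit, fell by 0.76 (SE 0.27, adjusted p = 0.0399), from 11.60, 11.76 and 12.52 to 10.82, 11.02 and 11.77. For MCM6 and MCM4 the highest LPS arrays reached into the control range, while within each replicate number LPS was the lower. MCM5 differed by −0.01 (SE 0.23, adjusted p = 0.990). A second probe of PCNA differed by −0.20 (adjusted p over all probes = 0.611), so the 2 probes disagreed in size. Probes disagreed in sign for CDKN1B, whose second probe rose by 0.68 (adjusted p over all probes = 0.0108) while the one used differed by −0.45 (0.460), and, with no probe passing, for CCNE1 (−0.42 against 0.57 in the one used), MCM7 (0.35 against −0.17), CDK2 (0.72 against −0.35) and BIRC5 (0.21 against −0.01).

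No mitotic member was called at 4 h, and 9 of 13 differences were negative with a median of −0.03. CCNB1 differed by −0.03 (SE 0.65, adjusted p = 0.975), with 9.85, 12.01 and 12.39 after LPS. MKI67 was 7.81, 8.20 and 8.11 in controls and 8.44, 8.83 and 8.44 after LPS, a difference of 0.53 (SE 0.31, adjusted p = 0.211) with no overlap. Groups did not overlap for 5 of 35 members, 2 below and 3 above the controls, beside 23.4% and 15.4% of all genes.

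Same-numbered arrays deviated together at 4 h, though the labels do not say what arrays of 1 number share. Taking the numbers as a block raised the count to 12 of 35 members, beside 36.1% of all genes. Added were lower calls of MCM3, TOP2A, CCNB2 and CDC20 and higher calls of CCNE1, whose second probe had the opposite sign, and CCNE2. CDC20, the activator of the anaphase-promoting complex, was 13.73, 14.82 and 14.98 in controls and 12.72, 14.30 and 14.30 after LPS. Its difference of −0.74 had an adjusted p of 0.000326 with the block, since LPS was lower within every number. TOP2A, the topoisomerase that disentangles sister chromatids, differed by −0.60 (0.0077) and CCNB2, a second B-type cyclin, by −0.61 (0.00471). CCNE2 was detected on 2 of 3 arrays in each group, and its value of 1.07 carries that limit. Without the 6 arrays numbered 1, 3 members were called, beside 16.8% of all genes: CDKN1A (1.45), MCM6 (−0.89) and MCM3 (−0.56).

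This comparison ran between slide 3 and slide 2. With slide as a block, in a model of stimulus, SB and time with their two-way interactions, no member was called (3.13% of all genes were), CDKN1A stood at 0.96 (adjusted p = 0.387), and PCNA and CCND3 turned to 0.10 and 0.19. Since each group lay on a single slide, this model counts any interaction of stimulus, SB and time all together as a slide effect. It cannot tell them apart, so these values do not show that slide caused the calls. When the arrays were instead given equal medians, without quantile normalisation, the median over all genes moved by −0.62. The count then rose to 14 members (1 higher, 13 lower), beside 47.7% of all genes, and the share of higher calls among all called genes went from 39.2% to 8.35%. CDKN1A remained higher under that scaling, at 0.75 (adjusted p = 0.0367), and E2F1 stood at 0.12 (0.797). Leaving out number 1 of LPS took PCNA to −0.56 (adjusted p = 0.114), MCM6 to −0.62 (0.157), MCM4 to −0.56 (0.227) and E2F1 to 0.54 (0.285), while CCND3 and CDKN1A passed whichever array of the 2 groups was left out. PCNA also failed to pass without number 3 of control, MCM6 without numbers 2 or 3 of control, MCM4 without numbers 2 or 3 of control or 2 of LPS, and E2F1 without numbers 1 or 3 of control or 3 of LPS.

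In the wider lists, 9 of 48 other replication genes were lower and 2 higher (22.9% called). Of all genes 16.2% were lower, 10.5% higher and 26.7% called. ORC2 and ORC5, subunits of the origin recognition complex, fell by 1.74 and by 0.96. UHRF1, which couples DNA methylation to replication, fell by 0.89, and MCM10, a replication initiation factor, by 0.83. None of 52 other mitotic genes was called in the main fit, and their median was −0.18 against −0.09 over all genes. Of them 51 were lowest in number 1 in all 6 treatments, which widens their spread in that fit. The absence of calls therefore does not show that they were unchanged. Among 36 other G1/S regulators 8 were higher and 3 lower (30.6% called), so the replication and regulator lists were called about as often as all genes. GADD45B and GADD45A, stress-induced growth arrest genes, rose by 1.99 and 1.21, BTG1, an antiproliferative gene, by 1.54 and CCND1, cyclin D1, by 1.81. The called regulators thus included genes that restrain division and a cyclin that promotes it.

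**Figure D3:**
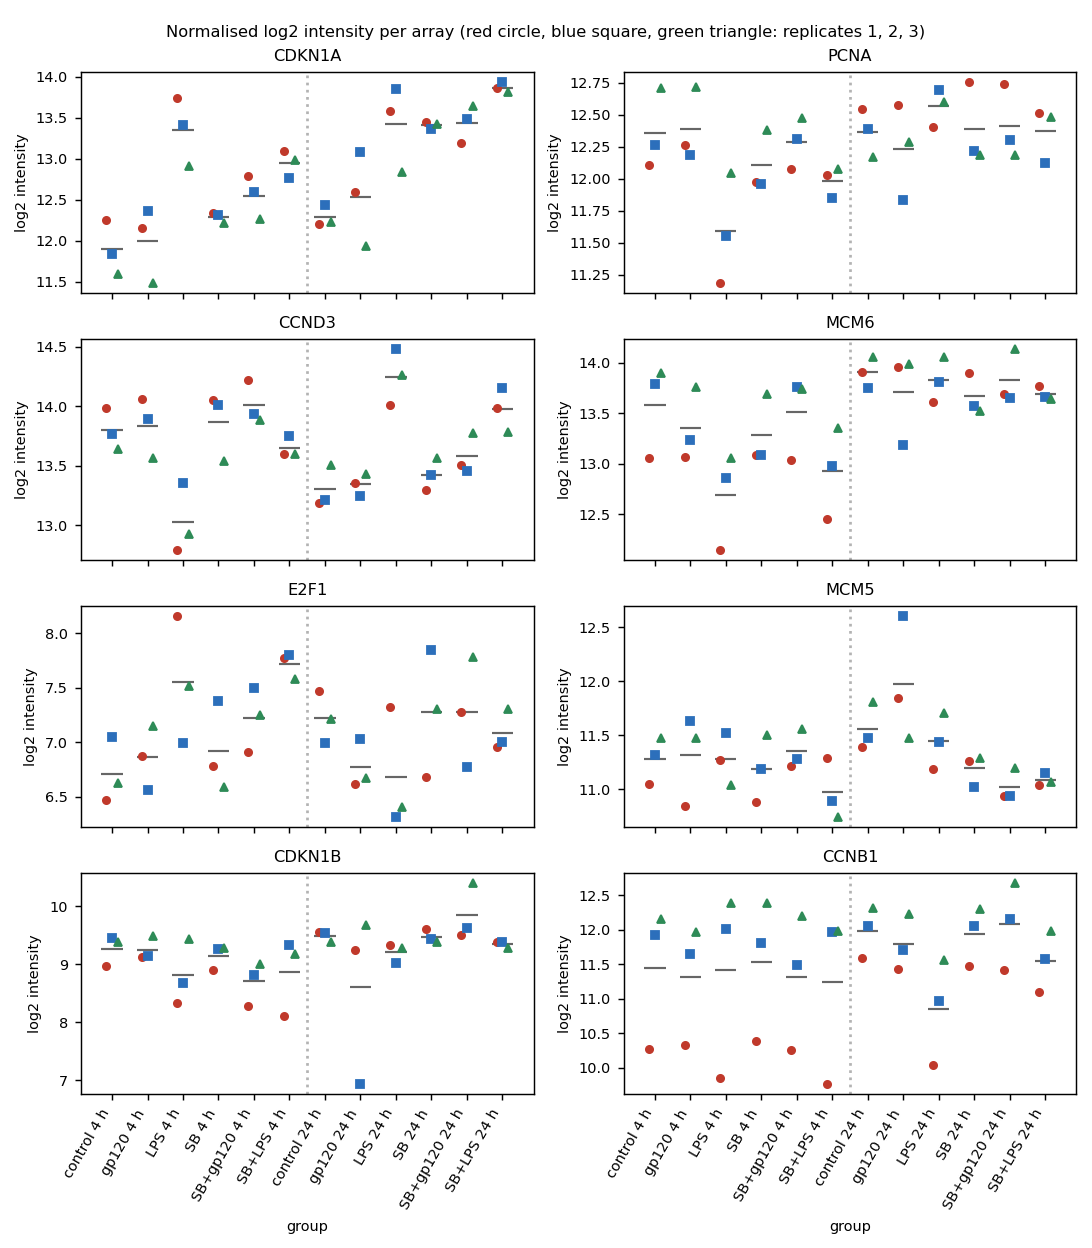
Log2 level of 8 members on each of the 36 arrays, by group, with the group mean. CDKN1A runs from 11.48 to 13.94, and CCND3 is lowest after LPS at 4 h (mean 13.03) and highest after LPS at 24 h (14.25).

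At 24 h of LPS, CDKN1A and CCND3 were both raised, and the mitotic members lay below the controls without passing the test. CDKN1A was 12.20, 12.43 and 12.23 in controls and 13.58, 13.85 and 12.84 after LPS, a rise of 1.14 (SE 0.26, adjusted p = 0.00237), or 2.20-fold. CCND3 rose from 13.19, 13.22 and 13.51 to 14.01, 14.48 and 14.26, by 0.94 (SE 0.17, adjusted p = 0.000227), or 1.93-fold. Both changes were without overlap and within slide 1. They were the 2 members called of 35, beside 11.9% of all genes (6.6% higher, 5.28% lower).

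All 13 mitotic members had negative differences at 24 h, with a median of −0.62 (range −1.13 to −0.33) against −0.06 over all genes, of which 56.9% were negative. None was called. CCNB1 was 11.59, 12.06 and 12.32 in controls and 10.04, 10.97 and 11.56 after LPS. Every LPS array lay below every control, and the difference was −1.13 with an SE of 0.65 and an adjusted p of 0.316. PLK1 was 10.63, 10.94 and 11.04 in controls and 9.27, 9.47 and 10.51 after LPS. CCNB2 was 11.86, 12.02 and 12.52 in controls and 10.30, 11.19 and 11.56 after LPS. TOP2A was 13.15, 13.20 and 13.36 in controls and 11.76, 12.47 and 12.89 after LPS. In each of these genes number 1 of LPS was the lowest and number 3 the highest of the LPS arrays, and no LPS array reached the controls. BIRC5, survivin, a member of the chromosomal passenger complex, was 10.93, 10.91 and 11.21 in controls and 9.59, 10.43 and 10.62 after LPS. A second probe of BIRC5, which did not stand for the gene, fell by 1.34 (adjusted p over all probes = 0.0418), against −0.80 (0.212) for the one used. Groups did not overlap for 8 of 13 mitotic members, all below the controls, beside 19.9% of all genes.

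The size of these differences did not depend on the 4 h arrays, but their test did, because 1 estimate of the spread was shared by both times. The arrays numbered 1 at 4 h were set aside because mitotic members were low in them. Leaving them out therefore narrows the spread of mitotic genes in particular, and the share of all genes called is then no like comparison. Without the 6 arrays numbered 1 at 4 h the SE of CCNB1 was 0.34, and 6 mitotic members passed as lower, beside 8.14% of all genes: BIRC5 (−0.80, adjusted p = 0.00778), CCNB2 (−1.12, 0.00244), TOP2A (−0.86, 0.00908), CCNB1 (−1.13, 0.0243), PLK1 (−1.12, 0.0279) and AURKA, a spindle kinase (−0.62, 0.0488). In a fit to the 24 h arrays alone 4 passed, CCNB2 (adjusted p = 0.0113), BIRC5 (0.0169), TOP2A (0.0177) and CCNB1 (0.0494), beside 7.38% of all genes. The other mitotic genes had the same sign: 50 of 52 were negative with a median of −0.69, 34 did not overlap with the controls, and 1 was called, SPC24, a kinetochore component (−1.08, adjusted p = 0.0259). Of these 52, 25 passed as lower without the arrays numbered 1 at 4 h and 20 in the fit to 24 h alone. The fit to 24 h alone also leaves out those arrays, so the same limit holds and it is no separate check. Mitotic genes tended to move together from array to array, so these counts are not counts of separate measurements. The median of the 13 members was −0.36 when number 1 of LPS at 24 h was left out, and between −0.92 and −0.57 when any other array of the 2 groups was. Same-numbered arrays deviated together only weakly in this comparison (correlations 0.0537 to 0.148), so the numbers do not count as pairs here. Matched by number all the same, the class mean of LPS minus control was −1.23, −0.54 and −0.35.

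Of the replication members 8 of 13 were negative at 24 h, with a median of −0.11, and none was called. PCNA was 12.54, 12.39 and 12.17 in controls and 12.40, 12.69 and 12.60 after LPS, a difference of 0.20 (SE 0.22, adjusted p = 0.682). MCM5 differed by −0.11 (SE 0.23, adjusted p = 0.841). None of 48 other replication genes was called. Of 36 other G1/S regulators 2 were called, beside 11.9% of all genes, CCND1 (2.93) and MDM2, the p53 ubiquitin ligase (0.82), both higher. CDKN1B, the inhibitor of cyclin E kinase, differed by −0.29 (SE 0.41, adjusted p = 0.763). CCNE2, undetected in controls at 24 h and detected on 1 LPS array, was not called (adjusted p = 0.417). Under equal medians CDKN1A alone was called (1.08), beside 5.09% of all genes, and the share of higher calls among all called genes went from 55.6% to 76.3%.

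The LPS effect at 24 h minus that at 4 h was tested directly, and 3 of 35 members were called, beside 12.2% of all genes (7.36% higher, 4.87% lower). CCND3 differed by 1.72 (SE 0.25, adjusted p = 1.77e-05), having fallen at 4 h and risen at 24 h. PCNA differed by 0.96 (SE 0.32, adjusted p = 0.0433), and its second probe by 0.41 (adjusted p over all probes = 0.529). E2F1 differed by −1.38 (SE 0.43, adjusted p = 0.0326), and its level at 24 h was 7.47, 6.99 and 7.21 in controls and 7.33, 6.32 and 6.41 after LPS. Without the arrays numbered 1 at 4 h CCND3 alone was called (1.51), beside 8.29% of all genes. With slide as a block none was, beside 0.854% (CCND3 0.75, adjusted p = 0.374; PCNA 0.10, 0.960; E2F1 −1.29, 0.387). With arrays scaled to equal medians PCNA and CCND3 passed, beside 11.2% of all genes, and E2F1 stood at −0.60 (adjusted p = 0.399). Of the mitotic members 12 of 13 had a more negative difference at 24 h than at 4 h (median −0.52, all genes 0.03), and none was called. CDKN1A differed by −0.32 (SE 0.36, adjusted p = 0.633). Among the wider lists 10 genes were called in this contrast. GADD45B (−2.15), GADD45A (−1.58) and BTG1 (−1.24) had larger rises at 4 h, RB1, the retinoblastoma gene, had a difference of 1.40, and KIF2C, a mitotic kinesin, one of −1.78.

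After SB alone at 4 h no member was called by limma, beside 0.14% of all genes, and no member had an unadjusted p under 0.05, while 747 genes of 13582 did. The 95% intervals of the members reached down to −1.51 and about as far above 0, and the differences themselves lay between −0.51 and 0.39. At 24 h CDKN1A rose. It was 12.20, 12.43 and 12.23 in controls and 13.45, 13.36 and 13.42 after SB, without overlap, a rise of 1.13 (SE 0.26, adjusted p = 0.0228), or 2.18-fold. It was the 1 member called, beside 0.913% of all genes. Leaving out any 1 of the 6 arrays left the value at 1.08 or above but took the adjusted p to between 0.0504 and 0.117. The mitotic members had a median of −0.13 and the replication members one of −0.08, with none called; under equal medians, which moved the median of all genes by 0.24, these medians were 0.16 and 0.11. CDT1, which loads the helicase at origins, was 11.38, 11.16 and 11.23 in controls and 10.65, 10.64 and 10.60 after SB, a difference of −0.63 that did not pass (adjusted p = 0.227).

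SB before LPS was compared with LPS alone to ask how levels in LPS-treated cells differ with SB. At 4 h no member was called, beside 2.16% of all genes. CCND3 was 12.79, 13.36 and 12.93 after LPS and 13.60, 13.75 and 13.60 after SB+LPS, without overlap and within slide 3. The difference was 0.63 (SE 0.17, adjusted p = 0.0515), and 0.0135 with the replicate block, which called 7.02% of all genes. CDKN1A was 13.09, 12.76 and 12.98 after SB+LPS, lower by 0.41 than after LPS (SE 0.26, adjusted p = 0.486). E2F1 was 7.77, 7.80 and 7.58 after SB+LPS and differed by 0.16 (adjusted p = 0.883). Among other G1/S regulators, TOB1, an antiproliferative gene, was lower (−1.11) and GADD45A higher (1.07) after SB+LPS. The difference in the LPS effect between cells with and without SB was tested as an interaction, and at 4 h 0 members were called by limma, beside 0.14% of all genes, with CDKN1A at −0.81 (SE 0.36, adjusted p = 0.673) and PCNA at 0.65 (SE 0.32, 0.716).

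At 24 h SB+LPS and LPS lay on different slides, and no member was called, beside 1.03% of all genes. All 13 mitotic members and all 52 other mitotic genes were positive, with medians of 0.34 and 0.30 against 0.02 over all genes, of which 46.2% were negative. No mitotic member was free of overlap, while 11.1% of all genes lay above LPS without it. Equal medians moved the median of all genes by 0.51 in this comparison. CCNB1 was 11.09, 11.57 and 11.99 after SB+LPS and 10.04, 10.97 and 11.56 after LPS, a difference of 0.69 (SE 0.65, adjusted p = 0.888). The interaction of LPS with SB at 24 h called no member, beside 0.133% of all genes. In it 13 of 13 mitotic members and 51 of 52 other mitotic genes were positive, with medians of 0.42 and 0.46 against 0.04 over all genes, of which 44.9% were negative. CDKN1A was 13.86, 13.94 and 13.81 after SB+LPS, a difference of 0.44 from LPS alone (SE 0.26, adjusted p = 0.672). These mitotic values share the LPS arrays at 24 h with the comparison against control, so they add no independent measurement. Mitotic genes also tended to move together from array to array, so counts of genes are not counts of separate measurements.

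Against SB alone, SB+LPS at 4 h lowered MCM4, the 1 member called beside 15.6% of all genes (6.04% higher, 9.55% lower). Its level was 11.65, 11.67 and 12.27 after SB and 10.97, 10.93 and 11.00 after SB+LPS. It fell by 0.89 (SE 0.27, adjusted p = 0.0245), within slide 3 and without overlap. Without number 3 of SB it stood at −0.69 (adjusted p = 0.149), and it did not pass without number 1 or 2 of SB+LPS either. E2F1 (0.80, adjusted p = 0.0730) and CDKN1A (0.65, 0.0851) were above SB on every array and were not called. With the replicate block 4 members passed, MCM3 (−0.45, adjusted p = 0.0420), MCM4 (0.00373) and CDC20 (−0.53, 0.00914) lower and CDKN1A (0.0235) higher, beside 24.1% of all genes. Without the arrays numbered 1, MCM3 (−0.75, adjusted p = 0.00631) and MCM4 (0.044) passed, beside 9.7% of all genes. Among other genes CCND1 (2.01), GADD45B (1.82), GADD45A (1.41) and CDK6 (0.88) rose and ORC2 fell by 1.22. With equal medians, which moved the median of all genes by −0.57, 6 members were called, all lower, beside 33.5% of all genes lower, and the share of higher calls among all called genes went from 38.8% to 5.43%.

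At 24 h no member was called between SB+LPS and SB, beside 5.23% of all genes. CCND3 was 13.29, 13.42 and 13.56 after SB and 13.98, 14.15 and 13.78 after SB+LPS, without overlap. The difference of 0.55 had an adjusted p of 0.0649, and of 0.0199 with the replicate block, which called 9.96% of all genes. The mitotic members had a median of −0.23 with 12 of 13 negative, which became 0.04 with 5 negative under equal medians. CCND1 (1.86) was higher, and DBF4, the activator of the origin-firing kinase CDC7, was lower (−0.80).

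LPS and gp120 were compared in SB-treated cells as well. At 4 h no member was called, beside 12.1% of all genes. With the replicate block 4 were lower after SB+LPS, MCM4 (−0.79, adjusted p = 0.0114), MCM6 (−0.59, 0.0157), CCNB2 (−0.53, 0.0223) and CDC20 (−0.50, 0.0165), beside 19.1% of all genes. At 24 h none was called, beside 4.58% of all genes, and 12 of 13 mitotic members were negative with a median of −0.34. CCND1 was higher after SB+LPS at both times (2.03 and 1.67), and at 4 h so were GADD45B (1.69), GADD45A (1.32), CDK6 (0.90) and BTG1 (0.90).

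The viral protein gp120 called no member at either time, and none of the 13582 genes (0% called). At an unadjusted p under 0.05 there were 261 genes at 4 h, with no member among them, and 405 genes at 24 h, with 1 member, CDKN1B. The members' 95% intervals reached from −1.45 to 1.44 at 4 h and from −1.86 to 1.23 at 24 h. CCNB1 at 4 h was 10.34, 11.66 and 11.97 after gp120, close to the controls array by array. CDKN1B at 24 h was 9.24, 6.94 and 9.68 after gp120 and 9.56, 9.54 and 9.39 in controls, so its difference of −0.88 came from number 2, and its second probe differed by 0.02. That array also held the highest level of MCM5 and the lowest of PCNA and MCM6 in its group, and it had the largest share of probes detected (44.4%).

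SB+gp120 was set against gp120 to ask what SB does in the presence of the viral protein. No member was called at 4 h, beside 0.184% of all genes. At 24 h 2 were called, beside 4.64% of all genes (2.51% higher, 2.13% lower). MCM5, a helicase subunit, was 11.85, 12.61 and 11.48 after gp120 and 10.94, 10.93 and 11.19 after SB+gp120, and fell by 0.95 (SE 0.23, adjusted p = 0.0176). CDKN1A was 12.59, 13.08 and 11.94 after gp120 and 13.19, 13.49 and 13.64 after SB+gp120, and rose by 0.90 (SE 0.26, adjusted p = 0.0396). Neither overlapped between groups. Without number 2 of gp120 MCM5 stood at −0.64 (adjusted p = 0.181), and without number 3 of gp120 CDKN1A stood at 0.61 (0.164). CDKN1A also failed to pass without number 1 of gp120 (0.93), number 2 of SB+gp120 (0.88) or number 3 of SB+gp120 (0.80). The comparison ran between slides, and with slide as a block no gene was called, MCM5 stood at −0.24 and CDKN1A at 1.28 (adjusted p = 0.997). In that model slide and an interaction of stimulus, SB and time all together cannot be told apart. With equal medians CDKN1A alone was called (1.15, adjusted p = 0.0478), beside 0.913% of all genes, and the share of higher calls among all genes called went from 54.1% to 75.8%. CDKN1B differed by 1.22 (SE 0.41, adjusted p = 0.0807), on the same single gp120 array; its second probe differed by 0.20 (adjusted p over all probes = 0.628). In the wider lists POLD2, a DNA polymerase subunit, fell by 0.70, and GADD45A (0.85) and E2F3 (0.56) rose.

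Untreated cells were compared between 24 h and 4 h, across slides. No member was called, beside 9.33% of all genes. All 13 mitotic members were higher at 24 h in the mean, with a median of 0.42 (all genes 0.01). Without the arrays numbered 1 at 4 h the median was 0.10 with 6 negative, and under equal medians it was 0.04. Of the replication members 11 of 13 were positive with a median of 0.29, which was 0.09 without the arrays numbered 1 and −0.13 under equal medians. MCM2, a helicase subunit, was 10.30, 10.67 and 11.51 at 4 h and 11.62, 11.48 and 11.85 at 24 h, with an overlap of 1 array. Its difference of 0.82 (SE 0.28) had an adjusted p of 0.0569. CCND3 differed by −0.49 (SE 0.17, adjusted p = 0.0686), without overlap. Of other replication genes 4 were higher at 24 h: PRIM2 (2.31) and POLA1 (1.14), of the primase complex, POLE (0.72) and POLD2 (0.65). Among other G1/S regulators CCNG2 (1.86), a cyclin linked to arrest, and BTG1 (0.94) were higher, and CCND1 (−1.48) and E2F3 (−0.99) lower.

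Across the 12 groups, CDKN1A had its lowest mean in controls at 4 h (11.89 ± 0.33) and its highest in SB+LPS at 24 h (13.87 ± 0.06). At 24 h its means in LPS (13.42 ± 0.52), SB (13.41 ± 0.05) and SB+gp120 (13.44 ± 0.23) lay within a spread of each other, and those in control (12.29 ± 0.13) and gp120 (12.54 ± 0.57) below them. At 4 h LPS (13.35 ± 0.42) and SB+LPS (12.94 ± 0.17) were highest, with SB+gp120 (12.55 ± 0.27), SB (12.29 ± 0.06) and gp120 (12.00 ± 0.46) nearer the control. CCND3 ranged from 13.03 ± 0.29 in LPS at 4 h to 14.25 ± 0.24 in LPS at 24 h, next to 13.97 ± 0.19 in SB+LPS at 24 h. Among replication members the group means ran from 10.97 to 12.25 in MCM4, from 12.69 to 13.91 in MCM6, from 10.52 to 11.65 in MCM2, from 11.59 to 12.56 in PCNA and from 6.54 to 7.05 in CDC6, the helicase loader. In the mitotic class the group means of CCNB1 ran from 10.86 to 12.08, of PLK1 from 9.63 to 10.87 and of BUB1, a spindle checkpoint kinase, from 10.72 to 11.91. The lowest mean was LPS at 24 h for CCNB1 and LPS at 4 h for PLK1 and BUB1. The standard deviation within groups, pooled over the 12, was 0.87 for CCNB1 and 0.95 for PLK1, against 0.33 for CDKN1A and 0.20 for CCND3.

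**Figure D4:**
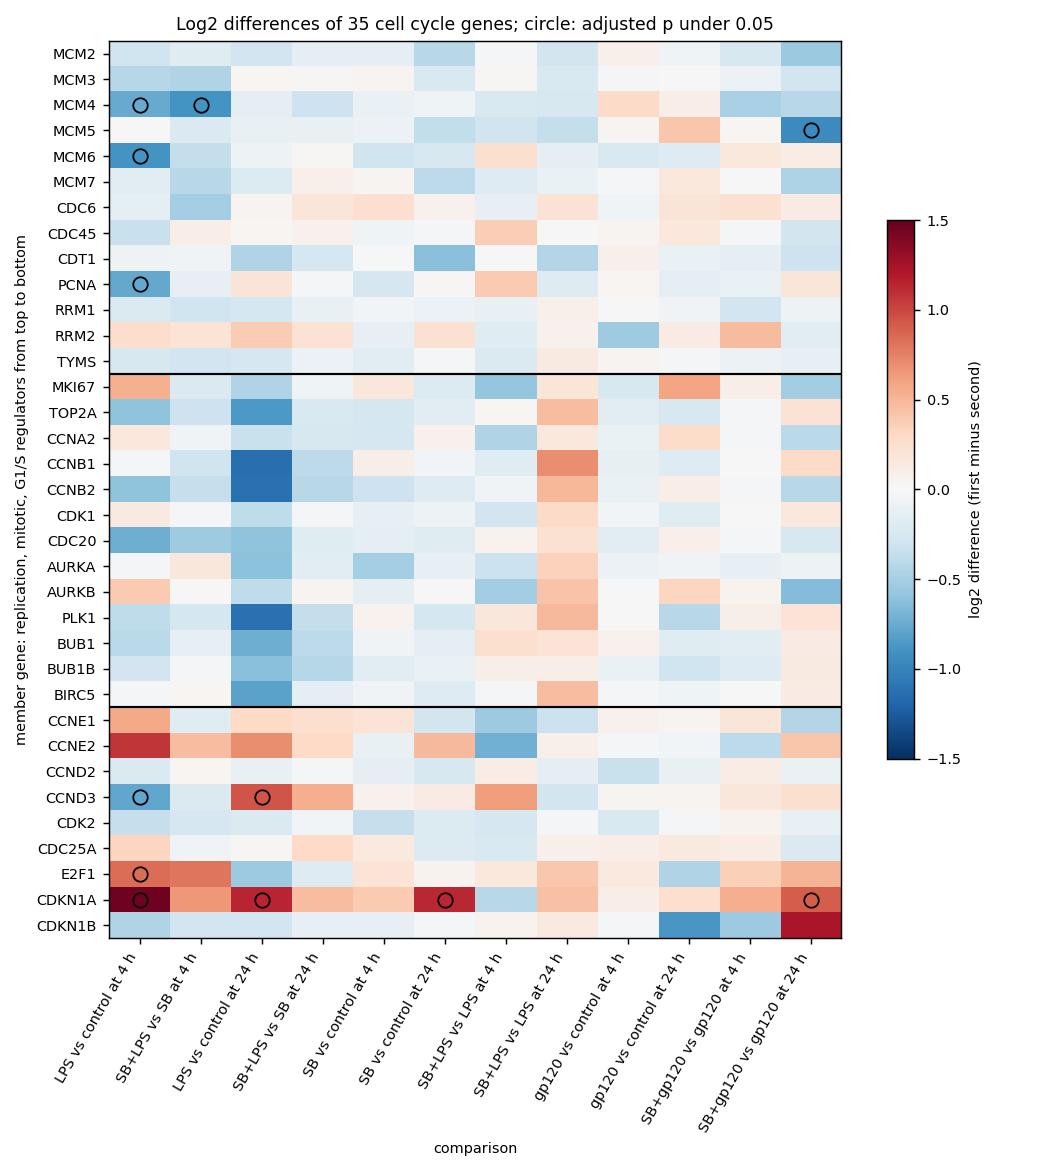
Log2 difference of each of the 35 members in 12 comparisons, members grouped by class. Circles mark members called at an adjusted p under 0.05, 6 of them for LPS against control at 4 h and 2 at 24 h.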

How the data were processed

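RNA of THP-1 cells was hybridised, as biotin-labelled cRNA, to 36 Illumina HumanHT-12 v4 arrays, 3 biological replicates per group per the labels. Per the file headers, the deposited non-normalised table gives for each of 47222 probes a mean bead intensity and a detection p-value. The deposited log2 values equalled quantile-normalised log2 raw intensities to within 0.098 and served as an alternative; the design text names GeneSpring GX. The 72 further bead columns were not used. Scanner settings and genome build are not given in the sources used here.

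All probes were background-corrected with normexp on the detection p-values, offset by 16, quantile-normalised and put on the log2 scale (neqc in limma 3.58.1, R 4.3.3). Probes with a detection p under 0.05 on 3 or more arrays were then kept (26473). Of all probes 30112 had 1 gene symbol in the platform annotation, 8 several and 17102 none, and 30073 were matched to RefSeq names. The probe with the highest mean stood for each of 13582 genes. One mean per group was fitted on all 36 arrays with lmFit and eBayes, and p-values were adjusted by Benjamini-Hochberg within each of 18 contrasts (15 between groups, 3 interactions); a gene was called at an adjusted p under 0.05. An exact permutation test of 3 against 3 arrays cannot go below p = 0.1 and was not used. The number of arrays limits the precision. In simulated data for LPS against control at 4 h on 13582 genes, 10% of 1.5-fold, 72% of 2-fold, 94% of 3-fold and 96% of 4-fold changes were called, with 2.86% false calls. The changed genes were few and drawn at random, and noise was independent between genes, unlike in the data. These rates do not hold for the mitotic members, whose median SE was 0.46 against 0.30 over all members.

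The members and gene lists were chosen with earlier results of these data known. Up to 3 called members per class and comparison (2 for interactions) with the smallest adjusted p were described, besides MKI67, PCNA, CCNB1, MCM5, CDKN1A and CDKN1B, and up to 4 called genes of each wider list with the largest change. Same-numbered arrays deviated together by correlations of 0.123 to 0.696 in every 4 h comparison. At 24 h they did so for SB+LPS against SB (0.104 to 0.343) and against SB+gp120 (0.117 to 0.301). The main fit did not take the numbers as pairs, so its p-values ignore these shared deviations. Numbers entered only as a block in an alternative fit. Other comparisons did not reach 0.1 in every pair (LPS against control at 24 h, 0.0537 to 0.148). Alternatives changed the background correction, scaling, detection filter, probe rule, variance model, replicate block, slide and the arrays included. The slide block assumed no interaction of stimulus, SB and time all together, which it cannot tell from slide. Leaving out the arrays numbered 1 at 4 h and fitting 1 time alone were chosen after seeing the data. Comparisons with a common control share its arrays and are not independent. Figures were drawn with matplotlib 3.10.9 and tables with pandas 2.3.3 in Python 3.11.15.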

Additional observations from a re-analysis of the deposited data

Results flagged for a closer look

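For 3 members the effect of LPS differed between 24 h and 4 h in the test of that difference (limma, adjusted over 13582 genes). CCND3 had a difference between the times of 1.72 (adjusted p = 1.77e-05), having fallen by 0.77 at 4 h and risen by 0.94 at 24 h. PCNA had one of 0.96 (adjusted p = 0.0433), with −0.77 at 4 h and 0.20 at 24 h, while its second probe had one of 0.41 (adjusted p over all probes = 0.529). E2F1 had one of −1.38 (adjusted p = 0.0326), with 0.84 at 4 h and −0.54 at 24 h. The 4 h arrays compared lay on different slides and the 24 h arrays on 1 slide, and with slide as a block none of the 3 was called. That block cannot tell slide from an interaction of stimulus, SB and time all together.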

How the results depend on the processing

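Counts of called members moved as follows. LPS against control at 4 h (6) gave 14 with equal medians, 12 with the replicate block within each time, 0 with slide as a block, 2 without the dim arrays, 3 without the arrays numbered 1 at 4 h, 2 with only the groups compared and 2 to 6 leaving out 1 array. PCNA (0.10) and CCND3 (0.19) reversed with slide as a block. LPS against control at 24 h (2) gave 1 with equal medians, 6 with the replicate block, 11 with the block within each time, 8 without the arrays numbered 1 at 4 h and 6 with only arrays of the same time. SB against control at 24 h (1) gave 0 leaving out any 1 array.

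SB+LPS against LPS at 4 h (0) gave 1 with no background correction, the authors' values, the mean of probes, a stricter detection p (0.01) or none, either replicate block or trended robust variances, and 0 to 1 leaving out 1 array; at 24 h (0) it gave 1 with the block within each time (CCNB1, adjusted p = 0.0226). SB+LPS against SB at 4 h (1) gave 6 with equal medians, 2 with the replicate block, 4 with the block within each time, 2 without the arrays numbered 1, 0 without the dim arrays, with only the groups compared or with only the same time, and 0 to 2 leaving out 1 array. At 24 h (0) it gave 1 with no background correction, the authors' values, either block, trended robust variances, without the arrays numbered 1 or with the same time, and 2 with only the groups compared. SB+LPS against SB+gp120 at 4 h (0) gave 1 with the replicate block or trended robust variances and 4 with the block within each time. SB+gp120 against gp120 at 24 h (2) gave 1 with equal medians, 5 with the block within each time, 0 with slide or only the groups compared, and 1 to 2 leaving out 1 array. Control at 24 h against 4 h (0) gave 2 with no background correction, the authors' values or trended robust variances, 1 with equal medians, the mean of probes or the replicate block, and 0 to 1 leaving out 1 array. LPS by time (3) gave 6 with the block within each time, 0 with slide, 1 without the dim arrays, without the arrays numbered 1 or with only the groups compared, and 1 to 3 leaving out 1 array. The causes were not tested. The other 7 comparisons called 0 members under each alternative run. The block within each time could not be fitted for controls between times.

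Equal medians moved the median of all genes by −0.40 for SB+LPS against SB+gp120 at 4 h, 0.51 for SB+LPS against LPS at 24 h, −0.35 for controls between times and 0.60 for LPS by time. The share of higher calls among all called genes then went from 46.6% to 6.90% and from 30.7% to 77.8% for SB+LPS against LPS at 4 h and 24 h, from 64.1% to 82.2% for SB+LPS against SB at 24 h, from 42.4% to 16.9% and from 62.9% to 89.4% for SB+LPS against SB+gp120, from 45.7% to 7.10% for controls between times, from 60.2% to 91.7% for LPS by time and from 75% to 98.9% for SB against control at 24 h. Signal over background limits CCNE2 and CCND2.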
